A study of Mus musculus with 6 samples.

Results

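Smooth muscle and pericyte genes are described here in the neck region of the mouse stomach corpus, in wild-type and Cldn18 knockout animals. The set holds 30 genes, found by their symbols, out of 38720 rows in the table of normalized counts. All 30 were in the table, and all 30 passed the filter on low values that left 17432 genes for testing. They were taken as genes of the contractile apparatus of smooth muscle, its regulators, and 3 genes of pericytes.

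Smooth muscle contracts when calcium, through calmodulin, activates myosin light chain kinase, which phosphorylates the regulatory light chain of myosin so that the motor pulls on actin filaments. The filaments are anchored in dense bodies, which correspond to the Z-lines of striated muscle, and intermediate filaments link the dense bodies together. In the stomach, strands of smooth muscle run up between the glands from the muscularis mucosae, and smooth muscle cells and pericytes also wrap the blood vessels of the mucosa. Many of these genes are switched on together by serum response factor (SRF) with its coactivator myocardin, at a DNA element called the CArG box, while several have close relatives that are used by the cytoskeleton of most cells.

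Claudin 18 seals tight junctions between gastric epithelial cells, and mice with and without it were compared. The 2 groups were wild-type (Cldn18+/+) and Cldn18 knockout (Cldn18-/-), with 3 libraries each. Both were of the B6:129S5 strain, and no treatment is given. The age is 7 weeks in the sample labels and 7 days in the series design text. The neck region was cut by laser capture from unfixed frozen sections and its RNA was sequenced, so a library holds whatever cells lay in the captured area. The labels do not tie the libraries to different animals, so the spread behind each p-value is that between these samples and may be technical. The sources used here do not give how Cldn18 was disrupted.

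The libraries held 37673283 to 52842813 reads on genes. Cldn18 itself was lower in all 3 knockout libraries than in all 3 wild-type libraries and was still read (log2 difference -0.71 ± 0.20 SE, limma adjusted p = 0.0134). The wild-type libraries were not alike. The skeletal muscle actin Acta1 stood at 1914 normalized counts in wild-type 1, 28343 in wild-type 2 and 10619 in wild-type 3, and 1428 of the 17432 genes tested (8.19%) were at least 3 times higher in wild-type 2 and at least 1.5 times higher in wild-type 3 than in wild-type 1. Of the 30 genes described here, 1 had that pattern, the alpha-actinin gene Actn1. Called results of genes given with values that were lost or moved by over 1.5 times on the log2 scale when wild-type 2 and 3 were left out are also given with wild-type 1 as the sole wild-type library. In that fit the spread comes from the knockout libraries alone and the lone wild-type library is assumed to vary like them, so its p-values and calls say little about wild-type variation.

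The 30 genes did not move as a block. In the knockout 8 fell, 2 rose and 20 were not called, where a gene is called when its adjusted p, by limma with Benjamini-Hochberg adjustment over all genes tested, is under 0.05. Values in parentheses of the form 0.05 ± 0.21 are log2 differences, knockout minus wild-type, with their SE. Those that fell were the actins Acta2 and Actg2, the filament nucleator Lmod1, the myosin heavy chain Myh11, the myosin light chain Myl9, the intermediate filament gene Synm, the small heat shock gene Hspb7 and the pericyte gene Rgs5. Those that rose were Cald1 and Pdlim7. The share that fell, 8 of 30 (26.7%), stands beside 21.5% of all genes tested, and the share that rose, 2 of 30 (6.67%), beside 23.3%. The median log2 difference, knockout minus wild-type, was -0.07 over the 30 genes and -0.02 over all genes tested. In 9 of the 30 every knockout library was below every wild-type library, against 27.1% of all genes, and in 2 every knockout library was above, against 28.1%. Without wild-type 1, 4 genes rose and 6 fell, against 25.1% and 22.4% of all genes. Without knockout 1, 5 fell, against 17.0%. Without wild-type 3, knockout 2 or knockout 3, 1 rose, against 19.01%, 20.1% and 18.0%. In bulk tissue, fewer cells of a type and less RNA per cell cannot be told apart.

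**Figure D1:**
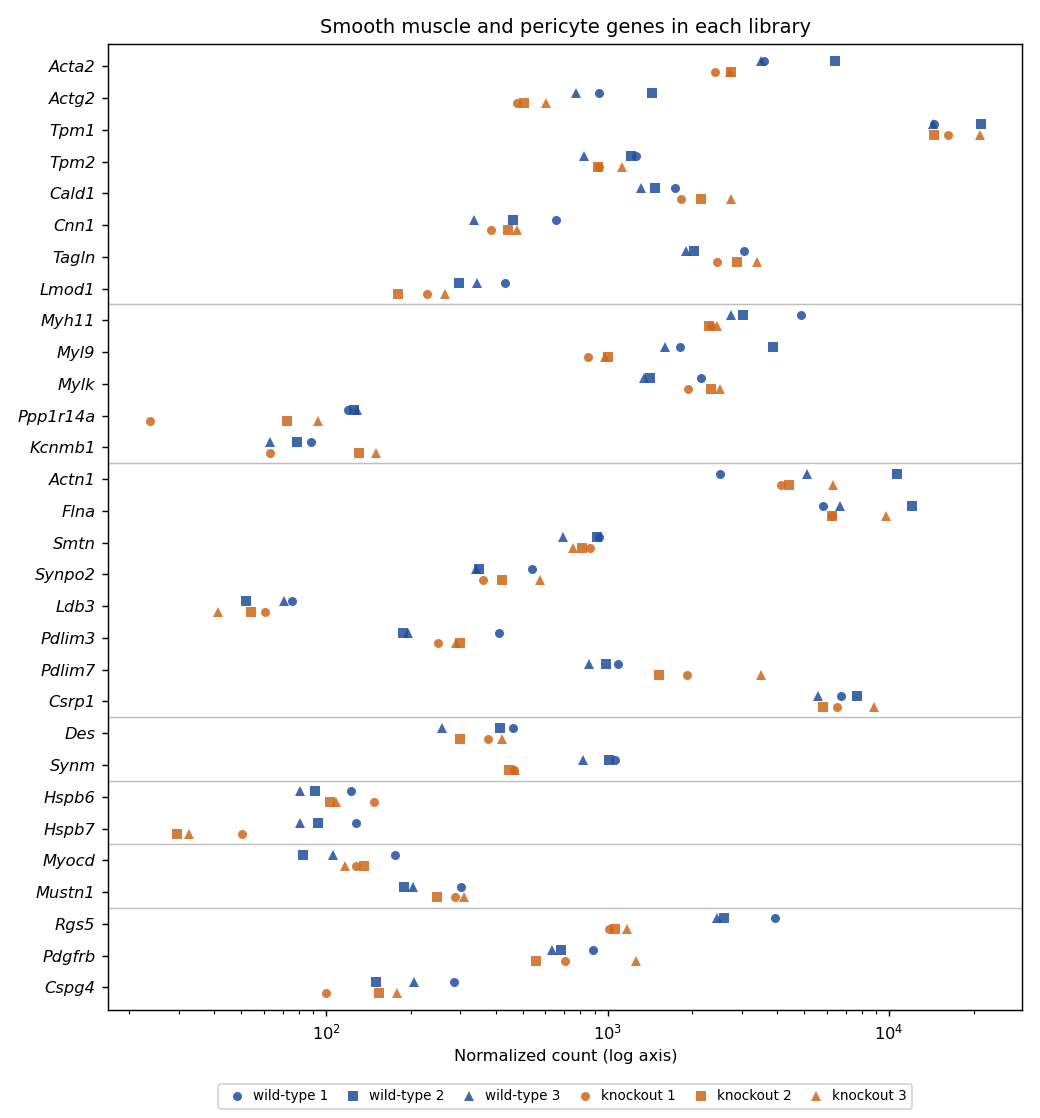
Normalized count (log axis) of each of the 30 genes in each library, grouped by role, with wild-type libraries in blue above knockout libraries in orange. Rgs5, Synm, Hspb7 and Myl9 show groups that are clearly apart, whereas Tpm1, Csrp1, Des and Smtn overlap.

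Of the 8 actin filament genes 3 fell, 1 rose and 4 were not called. Acta2, the alpha actin of smooth muscle, lies on chromosome 19 (34241090 to 34255590, minus strand, mm10). It had 3579, 6404 and 3518 normalized counts in the wild-type libraries and 2415, 2750 and 2722 in the knockout libraries. The groups did not overlap, and wild-type 2 stood well above the others. The difference on the log2 scale was -0.72 ± 0.22 (SE; limma adjusted p = 0.0196), and it was -0.43 but still called without wild-type 2. With wild-type 1 as the sole wild-type library it was -0.45 (adjusted p = 0.0568), and without knockout 1 it was -0.66 (adjusted p = 0.0784). Actg2, the gamma actin of visceral smooth muscle, had 935, 1436 and 775 normalized counts in the wild-type libraries and 476, 503 and 606 in the knockout libraries. Again no knockout library reached a wild-type one, and the log2 difference was -0.95 ± 0.22 (SE; adjusted p = 0.00563). Lmod1, a leiomodin that nucleates actin filaments, had 433, 296 and 345 normalized counts against 229, 180 and 263, and its log2 difference was -0.68 ± 0.23 (SE; adjusted p = 0.0319). That call depended on several libraries, since the adjusted p was 0.0852 without wild-type 1, 0.073 without wild-type 3, 0.078 without knockout 1 and 0.12 without knockout 2.

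The actin genes are near relatives, which bears on whether their reads can be separated. The last 60 coding bases of the 4 muscle actins, with the stop codon left out and with capitals where a base differs from Acta2, show how the differences are spread (GENCODE vM21, mm10).
Acta2: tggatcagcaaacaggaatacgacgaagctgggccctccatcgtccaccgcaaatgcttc
Acta1: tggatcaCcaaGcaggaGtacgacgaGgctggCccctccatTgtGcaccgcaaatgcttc
Actc1: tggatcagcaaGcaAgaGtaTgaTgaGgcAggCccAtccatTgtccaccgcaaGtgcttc
Actg2: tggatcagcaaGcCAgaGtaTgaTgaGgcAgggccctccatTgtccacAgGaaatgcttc
Over the whole coding sequence Acta2 was 85.4% identical to Acta1, 83.8% to Actg2 and 82.6% to Actc1. No run of 50 coding bases of Acta2 was shared with any of these 3. Across all its exons 0.326% of such runs were found in any other annotated gene.

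The other actin filament genes divided. Cald1 (caldesmon, which binds actin and restrains the myosin motor) had 1731, 1471 and 1318 normalized counts in the wild-type libraries and 1817, 2145 and 2750 in the knockout libraries. It rose, with all 3 knockout libraries above all 3 wild-type ones, by 0.56 ± 0.18 on the log2 scale (SE; adjusted p = 0.0249). The call was lost without wild-type 3 (0.47, adjusted p = 0.0976), without knockout 2 (0.58, adjusted p = 0.0596), without knockout 3 (0.40, adjusted p = 0.115) and with wild-type 1 alone as the wild-type group (0.35, adjusted p = 0.275). Most cells also make a caldesmon from this gene, and gene counts do not separate its isoforms.

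Tagln (transgelin, an actin-binding protein long used as a smooth muscle marker) had 3059, 2021 and 1898 normalized counts in the wild-type libraries and 2453, 2885 and 3385 in the knockout libraries. The groups overlapped through wild-type 1, and the log2 difference was 0.34 ± 0.20 (SE; adjusted p = 0.186). Without wild-type 1 it was 0.56 and was called (adjusted p = 0.014). Genes annotated on the opposite strand overlap Tagln, Gm48529 over 62.4% of its exon bases and Pcsk7 over 5.43%, and since the strandedness of the counting is not given, their reads cannot be told apart.

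Cnn1 (calponin, a further actin-binding restraint on the motor) had 656, 462 and 334 normalized counts against 385, 443 and 478, a log2 difference of -0.10 ± 0.24 (SE; adjusted p = 0.754). Tpm1, a tropomyosin that runs along the actin filament, had 14440, 21181 and 14286 against 16155, 14385 and 20963 (0.05 ± 0.21, adjusted p = 0.863). Tpm2, another tropomyosin, had 1258, 1208 and 826 against 929, 924 and 1126 (-0.13 ± 0.18, adjusted p = 0.612). In these 3 the groups overlapped, and the 95% interval of the difference stayed within a log2 difference of 1 in either direction.

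Of the 5 genes of the myosin motor and its control 2 fell and 3 were not called. Myl9, the regulatory light chain of smooth muscle myosin (chromosome 2, 156775420 to 156781658, plus strand), had 1809, 3863 and 1599 normalized counts in the wild-type libraries and 855, 1003 and 977 in the knockout libraries. The groups were apart and wild-type 2 was again the highest. The log2 difference came to -1.24 ± 0.28 (SE; limma adjusted p = 0.00435). Myh11, the heavy chain (chromosome 16, 14194535 to 14291372, minus strand), had 4845, 3023 and 2743 against 2336, 2295 and 2451. It was close to the threshold at -0.54 ± 0.20 (SE; adjusted p = 0.0474). The difference was -0.29 without wild-type 1 (adjusted p = 0.0936) and -1.04 with wild-type 1 as the sole wild-type library (adjusted p = 0.00154), and the adjusted p was 0.123, 0.12 and 0.0945 without knockout 1, 2 and 3.

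Mylk is the kinase that phosphorylates the light chain. It had 2141, 1411 and 1344.8 normalized counts in the wild-type libraries and 1928, 2335 and 2512 in the knockout libraries. Wild-type 1 lay among the knockout libraries, and the log2 difference, 0.49 ± 0.19 (SE; adjusted p = 0.0591), was not called. Without wild-type 1 it was 0.70 and was called (adjusted p = 0.00308). Ppp1r14a, an inhibitor of the phosphatase that reverses this step, had 120, 126 and 129 against 23.6, 72.4 and 93.2. All 3 knockout libraries were below the wild-type libraries but they differed widely among themselves, so the log2 difference of -1.18 ± 0.46 (SE; adjusted p = 0.0583) was not called, it was -0.60 without knockout 1 (adjusted p = 0.187), and without knockout 3 it was -1.57 and was called (adjusted p = 0.0287). Kcnmb1, a subunit of the calcium-activated potassium channel that damps contraction, had 88.1, 79.0 and 63.1 against 63.3, 131 and 151 (0.50 ± 0.37, adjusted p = 0.301).

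Acta2 and Myl9 both fell, and the DNA before their start sites is shown with CArG boxes, and CArG-like boxes that have a single G or C among the 6 central bases, in capitals. The windows are the 250 bases before the RefSeq start (GRCm38.p6), chr19:34255374-34255623 on the minus strand for Acta2 and chr2:156775214-156775463 on the plus strand for Myl9.
Acta2: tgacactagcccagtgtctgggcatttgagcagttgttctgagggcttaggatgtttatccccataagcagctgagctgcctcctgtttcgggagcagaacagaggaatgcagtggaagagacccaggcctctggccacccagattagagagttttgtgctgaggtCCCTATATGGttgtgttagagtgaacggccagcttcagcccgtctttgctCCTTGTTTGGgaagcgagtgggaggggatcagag
Myl9: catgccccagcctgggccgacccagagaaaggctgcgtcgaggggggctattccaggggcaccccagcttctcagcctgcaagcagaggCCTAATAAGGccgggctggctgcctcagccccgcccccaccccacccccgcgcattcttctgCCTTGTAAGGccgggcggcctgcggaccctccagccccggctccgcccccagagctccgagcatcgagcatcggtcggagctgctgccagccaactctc
Acta2 had CArG-like boxes beginning 84 and 34 bases before the RefSeq start, and Myl9 had a CArG box at 161 and a CArG-like box at 99. The RefSeq starts differ from the GENCODE spans given above, and each window overlaps its gene's span. Both Acta2 boxes lie inside the GENCODE span, which ends at 34255590. Both Myl9 boxes lie before its span, which begins at 156775420. Of the 30 genes 25 matched the RefSeq table, with 29 windows, and Actg2, Myh11, Tagln, Myocd and Pdgfrb did not. Windows of 300 bases, 250 before to 50 after the start, were searched on both strands. A CArG box was present in 3 of the 29 windows (10.3%), 1 of Myl9 and the others of Ldb3, and in 1.63% of all 32841 windows. The 2 Ldb3 windows overlap and hold the same box. By gene, 2 of the 25 matched genes had a CArG box, so the share of windows counts 1 box more than once. A CArG-like box was present in 5 of the 29 (17.2%), those of Acta2, Myl9, Synm, Hspb6 and Pdlim3, and in 8.49% of all windows. Of those 6 genes Acta2, Myl9 and Synm fell, and Ldb3, Hspb6 and Pdlim3 were not called. The letters are a description of these windows, and no binding was measured.

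Among the 8 genes of dense bodies, Z-lines and actin cross-links 1 rose and 7 were not called. Pdlim7, a PDZ and LIM domain protein of the actin cytoskeleton (chromosome 13, 55495795 to 55513676, minus strand), had 1088, 988 and 858 normalized counts in the wild-type libraries and 1913, 1516 and 3512 in the knockout libraries. The groups did not overlap and knockout 3 stood far above the rest. The log2 difference came to 1.15 ± 0.26 (SE; limma adjusted p = 0.00472), and with wild-type 1 alone as the wild-type group it was 0.99 (adjusted p = 0.0932). Its relative Pdlim3 had 413, 188 and 195 against 249.3, 299 and 288 (0.17 ± 0.30, adjusted p = 0.674), and Ldb3, also of that protein family, had 75.9, 51.9 and 70.9 against 60.4, 53.9 and 41.3 (-0.34 ± 0.35, adjusted p = 0.454). In both the groups overlapped.

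Actn1, an alpha-actinin that cross-links actin in dense bodies and in non-muscle cells, had 2508, 10653 and 5112 normalized counts in the wild-type libraries and 4135, 4394 and 6326 in the knockout libraries. The wild-type libraries spanned the knockout ones, and the log2 difference of -0.08 ± 0.41 (SE; adjusted p = 0.887) carries a wide error. With wild-type 1 alone as the wild-type group it was 0.95, the opposite sign, with an adjusted p of 0.0195 that rests on a single wild-type library. Flna, the actin cross-linker filamin A, had 5831, 12065 and 6713 against 6246, 6271 and 9743 (-0.10 ± 0.27, adjusted p = 0.786).

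Smtn (smoothelin, a protein of contractile smooth muscle) had 932, 919 and 695 normalized counts against 865, 809 and 754 (-0.06 ± 0.16, adjusted p = 0.798), with Gm11946 on the opposite strand over 16.3% of its exon bases. Csrp1, a LIM protein of smooth muscle and other cells, had 6759, 7678 and 5575 against 6539, 5832 and 8811 (0.07 ± 0.19, adjusted p = 0.783). Synpo2, an actin-bundling protein, had 540, 348 and 342 against 362, 423 and 575 (0.15 ± 0.24, adjusted p = 0.641). All 3 overlapped between groups, with intervals within a log2 difference of 1.

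The 2 intermediate filament genes differed. Synm, synemin, which ties desmin filaments to the anchoring sites (chromosome 7, 67730160 to 67759742, minus strand), had 1064, 1011 and 819 normalized counts in the wild-type libraries and 466, 448 and 467 in the knockout libraries. The knockout libraries lay within a narrow band below every wild-type library, and the log2 difference was -1.06 ± 0.16 (SE; limma adjusted p = 0.000402). Gm45102, on the opposite strand, overlaps 426 exon bases of Synm (5.37%) and has no counts here. Ttc23, also on the opposite strand, overlaps 84 exon bases (1.06%). Ttc23 was also lower in all 3 knockout libraries, with 448, 408 and 443 against 184, 215 and 210. Des, desmin, the main filament protein of muscle, had 460, 414 and 257 against 375, 298 and 420 (-0.02 ± 0.25, adjusted p = 0.953). Opposite-strand genes also overlap exon bases of Actn1 (Gm47766, 6.56%), Des (Gm15179, 5.86%), Hspb6 (Proser3, 5.31%) and Mylk (E130310I04Rik, 4.87%).

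The 2 small heat shock genes of muscle differed too. Hspb7 (chromosome 4, 141420779 to 141425311, plus strand) had 127, 93.9 and 80.6 normalized counts in the wild-type libraries and 50.1, 29.6 and 32.7 in the knockout libraries. It fell, with no overlap and a log2 difference of -1.41 ± 0.36 (SE; adjusted p = 0.00893), but was not called after quantile normalization (-0.87, adjusted p = 0.104). Hspb6 had 122, 91.4 and 80.6 against 147, 103 and 109 (0.29 ± 0.29, adjusted p = 0.452), with the groups overlapping.

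Neither regulator was called. Myocd, the myocardin coactivator of SRF, had 175, 82.7 and 106 normalized counts in the wild-type libraries and 127, 136 and 116 in the knockout libraries (0.13 ± 0.31, adjusted p = 0.763). Mustn1, a small nuclear protein of muscle, had 302, 189 and 203 against 286, 248 and 309 (0.31 ± 0.23, adjusted p = 0.313). Both had their highest wild-type value in wild-type 1, and the knockout libraries lay inside or near the wild-type range.

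Of the 3 pericyte genes 1 fell. Rgs5, a regulator of G protein signalling that marks pericytes and vascular smooth muscle (chromosome 1, 169655501 to 169695813, plus strand), had 3943, 2582 and 2453 normalized counts in the wild-type libraries and 1012, 1059 and 1175 in the knockout libraries. Its difference on the log2 scale was -1.44 ± 0.19 (SE; limma adjusted p = 0.000156), and it had the lowest adjusted p of the 30 genes. Pdgfrb, the receptor through which endothelial cells recruit pericytes, had 889, 685 and 636 against 705, 556 and 1256 (0.12 ± 0.27, adjusted p = 0.757), with knockout 3 above every other library. Cspg4, the NG2 proteoglycan on the pericyte surface, had 284, 151 and 205 against 100, 154 and 179 (-0.55 ± 0.31, adjusted p = 0.171).

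Rgs5 was also set against Pdgfrb and against the endothelial gene Pecam1 within each library, a comparison chosen after the values were seen and given without a test. The log2 ratio of Rgs5 to Pecam1 was 1.11 ± 0.14 (SD, n = 3) in wild-type libraries and 1.05 ± 0.19 (SD, n = 3) in knockout ones. That of Rgs5 to Pdgfrb was 2.002 ± 0.128 (SD, n = 3) and 0.45 ± 0.51 (SD, n = 3). The ratio of Pdgfrb to Pecam1 went from -0.90 ± 0.11 (SD, n = 3) to 0.60 ± 0.40 (SD, n = 3). Pecam1 itself had a log2 difference of -1.38 ± 0.21 (SE), beside -1.44 ± 0.19 for Rgs5. Pdgfrb (0.12 ± 0.27) and Cspg4 (-0.55 ± 0.31) were not called. Fibroblasts make Pdgfrb as well, and the part of any cell type in these ratios was not tested.

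**Figure D2:**
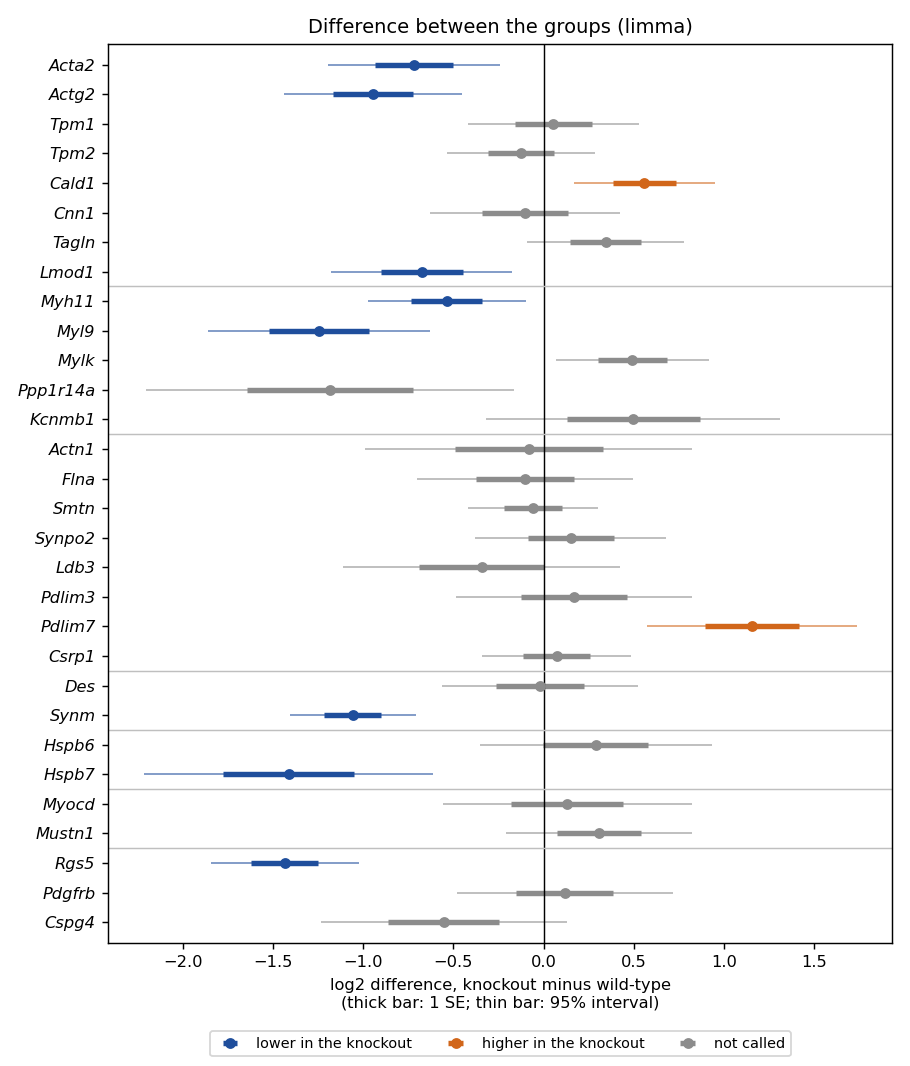
Log2 difference, knockout minus wild-type, of each gene by limma, with 1 SE as a thick bar and the 95% interval as a thin bar, in the same order of roles. Blue genes fell (8), orange genes rose (2) and grey genes were not called (20), and the widest grey intervals belong to Ppp1r14a, Actn1 and Kcnmb1.

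The absence of a call was not the same as a tight estimate. For 16 of the 20 uncalled genes the 95% interval of the log2 difference lay within 1 in either direction, so that a change of that size lay outside it. For Ppp1r14a, Kcnmb1, Ldb3 and Cspg4 it did not, and a change of that size lay inside it. Actn1 was only just among the 16, with an interval of -0.99 to 0.82. The interval of Mylk, 0.066 to 0.917 and not adjusted over genes, lay above 0.

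The count of calls differed between some fits. Under edgeR on the recovered reads 3 rose and 8 fell, against 24.8% and 21.4% of all genes, the addition being Mylk (adjusted p = 0.0416). Of the 30 genes 3 had, in the authors' deposited table, an adjusted p under 0.05, Synm, Hspb7 and Rgs5, all lower, where 9.31% of the genes with a value were lower and 13.4% higher. With wild-type 1 as the sole wild-type library, a fit with no spread among wild-type libraries, 1 was called higher (Actn1) and 7 lower, against 17.2% and 14.3%.

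Genes were ranked by normalized counts per kilobase of exon, with the length taken over all annotated exons of a gene. That length can exceed the length of the transcripts present, so levels can be understated and the ranks are approximate. Csrp1 was the highest of the 30 in both groups (wild-type 3410 ± 539 and knockout 3610 ± 796, SD, n = 3). Tpm1 was second (2565 ± 607 and 2647 ± 525). Neither is restricted to muscle. Myl9 (2086 ± 1076), Acta2 (2049 ± 751) and Tagln (1170 ± 321) came next in wild-type, and the levels of Myl9 and Acta2 do not differ beyond their spread. In the knockout Tagln followed Tpm1 (1463 ± 235), ahead of Acta2 (1197 ± 84.7), Actn1 (895 ± 216) and Myl9 (813 ± 68.3). Rgs5 went from rank 9 (658 ± 182) to rank 12 (238 ± 18.5). At the low end Ldb3 was last in both groups, at 10.8 ± 2.1 and 8.50 ± 1.59. Myocd was also low, at 18.9 ± 7.5 and 19.7 ± 1.5.

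The defining contractile genes were present in every library, among them Acta2, Myh11, Tagln and Cnn1, so smooth muscle RNA was in the captured tissue of both groups. The summed normalized counts of the 30 genes were 53579 to 81172 in wild-type and 52680 to 72591 in the knockout, ranges that overlapped. That sum is weighted to Tpm1, Flna, Csrp1 and Actn1, which had the highest mean counts in both groups and were not called. It is therefore not a measure of smooth muscle RNA. Acta2 fell and Tagln was not called, and their log2 ratio was 0.93 ± 0.72 (SD, n = 3) in wild-type libraries and -0.14 ± 0.16 (SD, n = 3) in knockout ones. The ratio of Actg2 to Tagln was -1.16 ± 0.62 (SD, n = 3) and -2.45 ± 0.08 (SD, n = 3). Both ratios were chosen after the values were seen and carry no test.

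Across the wild-type libraries the 30 genes had 2 main profiles. In 22 of them (73.3%) wild-type 1 was the highest wild-type library, compared with 46.1% of all genes tested. In 7, namely Acta2, Actg2, Tpm1, Myl9, Actn1, Flna and Csrp1, wild-type 2 was the highest, compared with 34.0% of all genes. The remaining gene, Ppp1r14a, was highest in wild-type 3. Among the knockout libraries 22 genes (73.3%) were highest in knockout 3, compared with 40.9% of all genes. Of the 8 genes that fell, Acta2, Actg2 and Myl9 belonged to the second profile, with wild-type 2 the highest. The other 5, Lmod1, Myh11, Synm, Hspb7 and Rgs5, belonged to the first. Genes of 1 library share its depth and its captured area, so these counts are a description.

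**Figure D3:**
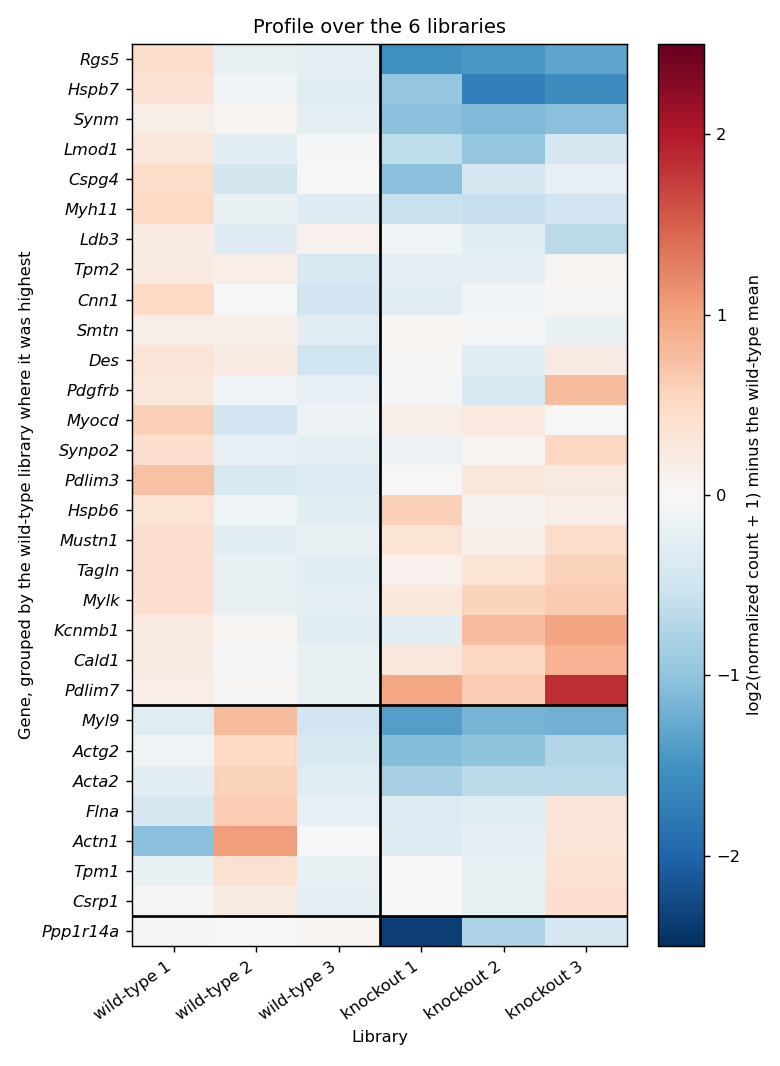
Each gene's log2(normalized count + 1) in each library minus its wild-type mean, with genes grouped by the wild-type library in which they were highest (22 in wild-type 1, 7 in wild-type 2, 1 in wild-type 3). Blue is below and red above the wild-type mean, and knockout 3 is the reddest knockout column, darkest at Pdlim7.

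Several of the 30 genes have a relative that builds the cytoskeleton of non-muscle cells, and the ratio of the muscle gene to that relative within a library does not depend on the scaling between libraries. In 6 of the 9 pairs reported here the ratio was lower in all 3 knockout libraries than in all 3 wild-type libraries. Each of the 6 had a two-sided exact permutation p = 0.1, below which 3 against 3 libraries cannot go, and 0.143 after Benjamini-Hochberg adjustment over the 10 pairs computed, so none could pass the threshold.

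The log2 ratio of Acta2 to beta actin, Actb, was -4.01, -3.81 and -3.90 in wild-type libraries and -5.53, -5.05 and -5.82 in knockout ones, a 2.95-fold fall. That of Actg2 to gamma actin, Actg1, was -3.91, -3.80 and -4.13 against -5.58, -5.26 and -5.50. That of Myh11 to the non-muscle heavy chain Myh9 was -1.77, -1.95 and -2.13 against -3.34, -3.32 and -3.68. In these 3 pairs the wild-type values lay within a narrow band, well clear of the knockout. Of the other non-muscle heavy chains, Myh14 rose (1.29 ± 0.23, limma adjusted p = 0.0011) and Myh10 was not called (-0.36 ± 0.32, adjusted p = 0.388). Ratios of Myh11 to Myh10 and Myh14 were not computed, so the lower myosin ratio is shown for Myh9 as the relative only.

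For Myl9 over Myl12a, both regulatory light chains, the log2 ratio was -0.98, 0.47 and -0.58 in wild-type libraries and -2.65, -2.31 and -2.96 in knockout ones, a 4.84-fold fall. Tpm2 over Tpm4 (-2.15) and Cnn1 over Cnn2 (-2.02) had log2 differences of that order, although Tpm2 and Cnn1 themselves were not called. In those pairs the non-muscle relative was called. Myh9 (0.96 ± 0.20, limma adjusted p = 0.00326) and Myl12a (1.03 ± 0.20, adjusted p = 0.00178) were called higher too. With wild-type 1 alone Myh9 was 0.64 and Myl12a was 0.72, and both calls were lost. Actb (0.84 ± 0.33, adjusted p = 0.0575) and Actg1 (0.55 ± 0.21, adjusted p = 0.0541) were not called. Each fall in a ratio thus includes the change of the relative and is not a loss of the muscle gene alone. Tpm4 rose by 2.02 ± 0.20 (SE; limma adjusted p = 3.24e-05) and Cnn2 by 1.92 ± 0.32 (adjusted p = 0.000782). Another non-muscle calponin, Cnn3, was more abundant in wild-type (mean 10065 against 830 for Cnn2) and fell (-3.16 ± 0.17). The lower calponin ratio therefore holds for Cnn2 as the relative and not for Cnn3.

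The other 3 pairs overlapped between the groups. The differences were -0.47 for Tagln over Tagln2 (exact permutation p = 0.2, adjusted 0.25) and -0.37 for Actn1 over Actn4 (exact permutation p = 0.4, adjusted 0.4). For desmin over vimentin, Des to Vim, it was 1.44 (exact permutation p = 0.3, adjusted 0.333), with wild-type 1 at -1.80 beside wild-type 2 and 3 at -4.42 and -3.76.

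**Figure D4:**
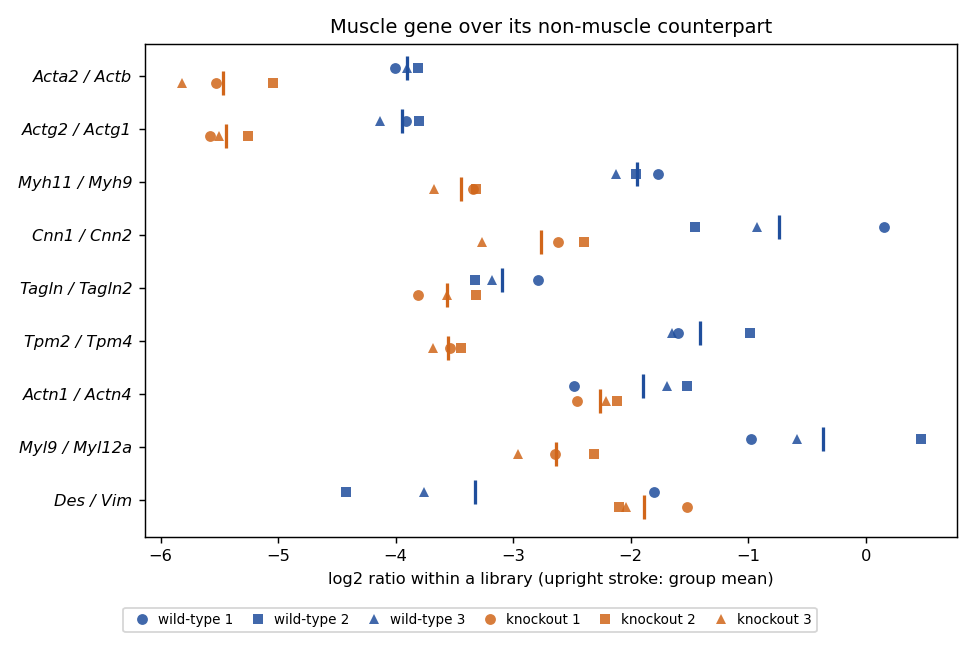
Log2 ratio of each muscle gene to its non-muscle relative in each library, with wild-type libraries in blue, knockout libraries in orange and an upright stroke at each group mean. In 6 pairs the groups are apart, and they overlap for Tagln over Tagln2, Actn1 over Actn4 and Des over Vim.

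Of all 25 tested non-muscle relatives 13 rose (52%) and 2 fell (8%), with a median log2 difference of 0.84. The shares over all genes tested were 23.3% and 21.5%. The 2 that fell were Vim and Cnn3, a calponin of non-muscle cells. Vim had 1608, 8895 and 3487 normalized counts against 1077, 1282 and 1728 (-1.46 ± 0.47, limma adjusted p = 0.0277). Its groups overlapped through wild-type 1, and with wild-type 1 alone it was -0.27 and was not called (adjusted p = 0.45). Cnn3 had 10274, 10913 and 9009 normalized counts in the wild-type libraries and 884, 1340 and 1198 in the knockout libraries (-3.16 ± 0.17, adjusted p = 5.93e-07).

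Of 31 tested genes in a list of other smooth muscle genes 10 fell (32.3%) and 2 rose (6.45%), with a median of -0.24. The shares over all genes tested were 21.5% and 23.3%. The largest called changes were in Cryab, a small heat shock chaperone (-3.16 ± 0.40, adjusted p = 0.000148), the smoothelin relative Smtnl2 (-2.34 ± 0.43, adjusted p = 0.00145), the calcium store protein Casq2 (-2.12 ± 0.37, adjusted p = 0.000963) and Cav1, the main coat protein of caveolae (-1.98 ± 0.23, adjusted p = 8.01e-05). Cryab was uneven in wild-type, at 311, 1176 and 539 normalized counts against 60.4, 58.4 and 75.0.

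Among 21 tested further pericyte genes 7 fell (33.3%) and 2 rose (9.52%), with a median of -0.67. The shares over all genes tested were 21.5% and 23.3%. The transcription factor Ebf1 had 213, 188 and 183 normalized counts in the wild-type libraries and 51.0, 40.6 and 75.0 in the knockout libraries, with no overlap (-1.83 ± 0.30, adjusted p = 0.000749). Art3 (-2.99 ± 0.42, adjusted p = 0.000267) and the transcription factor Zic1 (-3.15 ± 0.64, adjusted p = 0.00258) also fell, the latter from an uneven 37.9, 289 and 119 (with wild-type 1 alone -1.64, adjusted p = 0.0971), and Gm13889 rose (2.24 ± 0.21, adjusted p = 2.01e-05).

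Of 20 tested SRF cofactors and other regulators of smooth muscle genes 5 rose (25%) and 4 fell (20%), with a median of 0.17. These shares were near those of all genes tested, 23.3% and 21.5%. Srf itself had 1318, 2874 and 1775 normalized counts against 2287, 2071 and 2659 and was not called (0.30 ± 0.24, adjusted p = 0.345), although with wild-type 1 alone it was 0.82 (adjusted p = 0.0105). Its coactivators Mkl1 (-0.37 ± 0.16, adjusted p = 0.0962) and Mkl2 (0.05 ± 0.18, adjusted p = 0.855) were not called either, and with wild-type 1 alone they were -0.59 (adjusted p = 0.0319) and -0.31 (adjusted p = 0.175). The largest called changes were falls of Mef2c (-1.68 ± 0.25, adjusted p = 0.000407), Hey1 (-1.50 ± 0.35, adjusted p = 0.00563) and the SRF partner Elk1 (-1.08 ± 0.30, adjusted p = 0.0133), and a rise of the LIM cofactor Fhl2 (1.08 ± 0.16, adjusted p = 0.000337). Elk1 was -0.53 with wild-type 1 alone and was not called (adjusted p = 0.103).

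In the list for calcium and contraction signalling 8 of 30 tested genes rose (26.7%) and 2 fell (6.67%), with a median of 0.04. The shares over all genes tested were 23.3% and 21.5%. The endothelin receptor Ednra rose, with 545, 256 and 261 normalized counts in the wild-type libraries and 875, 675 and 987 in the knockout libraries (1.33 ± 0.28, adjusted p = 0.00334). Pde5a, which degrades cyclic GMP, also rose (0.997 ± 0.145, adjusted p = 0.000354). The calcium pump Atp2b4 (-1.20 ± 0.27, adjusted p = 0.00484) and the muscarinic receptor Chrm3 (-1.08 ± 0.27, adjusted p = 0.008) fell. With wild-type 1 alone the calls of Ednra (0.62) and Chrm3 (-0.88) were lost.

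**Figure D5:**
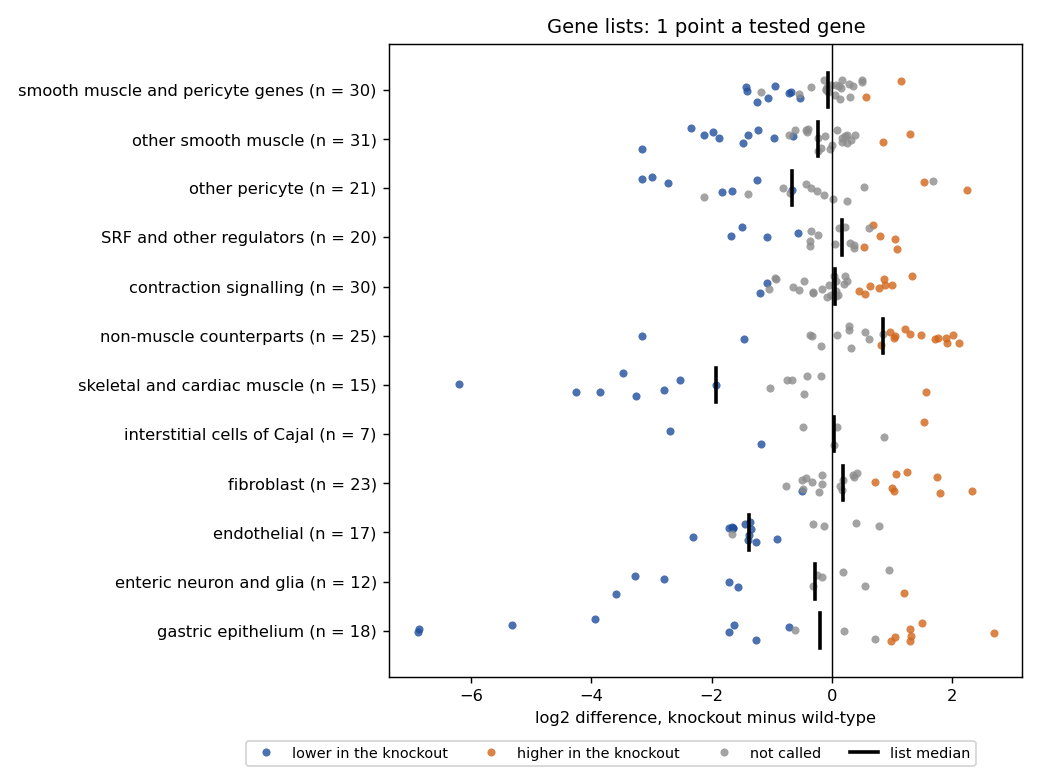
Log2 difference, knockout minus wild-type, of each tested gene in the 30-gene set and in 11 other lists, with the list median as an upright stroke. The 30 genes centre near 0 with 8 blue points below, non-muscle relatives lie mostly above 0 and endothelial genes mostly below.

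Genes listed as markers of other cells also differed between the groups. Of 17 tested endothelial genes 12 fell (70.6%, against 21.5% of all genes tested) and 5 were not called, with a median of -1.38. Their summed normalized counts were 11283 to 17717 in wild-type libraries and 4880 to 6496 in the knockout. Emcn (-2.31 ± 0.26, adjusted p = 5.8e-05), the receptor Kdr (-1.71 ± 0.20, adjusted p = 7.79e-05), Erg and Robo4 had the largest falls. Of 23 fibroblast genes 8 rose (34.8%) and 1 fell (4.35%), against 23.3% and 21.5% of all genes tested, with a median of 0.18. Their sums were 43634 to 69122 in wild-type and 49722 to 81573 in the knockout. Pdgfra rose by 1.79 ± 0.22 (SE; adjusted p = 0.000103) and Thy1 by 2.32 ± 0.33 (SE; adjusted p = 0.000278). With wild-type 1 alone Pdgfra was 1.41 and Thy1 was 2.28. In that fit the log2 difference was lower for every fibroblast gene except Pi16. The skeletal and cardiac muscle list summed to 8900 to 38330 in wild-type and 1630 to 1679 in the knockout, mostly Acta1 and Tnni3 in wild-type. In that list 12 of the 27 genes did not pass the filter. Among them were Myod1, Myog and Ckm, the last at 4.90, 7.41 and 3.88 in the wild-type libraries. That sum is therefore not a measure of striated muscle cells. The part of these cells in the results for the 30 genes was not tested.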

How the data were processed

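Messenger RNA levels were measured by sequencing in 6 libraries, 3 a group, taken from the sample labels. STAR, featureCounts, DESeq and mm10 are named per the submitters' processing notes, and the sources used here give neither roles, versions, annotation nor strandedness. The authors deposited 38720 rows of normalized counts, here treated as a signal. They also deposited their own comparison, with p-values and a ratio of the group means as fold change. Dividing each library by its smallest step gave whole reads, to within 0.05, for 100% of values.

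Groups were compared with limma 3.58.1 in R 4.3.3, using a trended variance prior, two-sided, on log2(normalized count + 1). Benjamini-Hochberg adjustment ran over the 17432 genes that reached 10 in 3 or more of 6 libraries. Log2 differences are on that scale, so those of low genes are understated. The filter can be passed on the libraries of 1 group alone. edgeR 4.0.16 on the recovered reads called 4323 genes higher and 3724 lower, and DESeq2 1.42.0 was a further alternative. Alternatives also changed the pseudocount, filter, scaling, variance model and libraries, 21 in all, and the script was tested on simulated data. Ratios were tested by exact permutation, and 1 gene of the non-muscle list, with its pair, is not reported here. Coordinates and exon lengths are from GENCODE vM21. Promoters are from RefSeq (GRCm38.p6).

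The 30 genes and the lists were chosen with earlier results of these data known, so the counts are descriptions. All 30 genes are named. Of each other list the rule named up to 4 called genes with the largest absolute log2 difference whose higher group averaged 100 or more. Not all genes so named are given here. Srf, Mkl1, Mkl2, Vim, Myh10, Myh14, Pi16 and Ttc23 were added after their values were seen. So were the Rgs5, Acta2 and Actg2 ratios to Pecam1, Pdgfrb and Tagln, and the CArG-like box. The gastric epithelium list and the enteric neuron and glia list were fixed as markers of other cells. In the first 7 of 18 rose (38.9%) and 8 fell (44.4%). In the second 1 of 12 rose (8.33%) and 5 fell (41.7%). The shares over all genes tested were 23.3% and 21.5%.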

Additional observations from a re-analysis of the deposited data

How the results depend on the processing

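The 10 calls among the 30 genes kept their direction under all 21 alternatives, and Synm and Rgs5 kept their call in all of them, Myl9 and Hspb7 in 20, Actg2 and Pdlim7 in 19, Acta2 in 16, Cald1 in 14, Lmod1 in 13 and Myh11 in 12. Of 630 values 544 kept direction and call, 35 lost the call, 9 gained it with the same sign and 1 (Actn1) with the opposite sign. Genes that fell numbered 8 in the fit as reported, 5 without the mean trend, 3 in the authors' deposited table, 4 at a log2 difference of at least 1 and 5 to 8 when 1 library was left out (5 without knockout 1). Genes that rose numbered 2 as reported, 1 without the trend, at a log2 difference of at least 1 or with wild-type 1 as the sole wild-type library, 0 in the authors' deposited table and 1 to 4 when 1 library was left out (4 without wild-type 1). Over all genes, 4053 rose and 3743 fell as reported, 1957 rose and 2624 fell at a log2 difference of at least 1, 2488 fell with wild-type 1 alone, and leaving out 1 library gave 3138 to 4379 higher and 2969 to 3899 lower. Without the mean trend 3482 of all genes tested rose (20.0%) and 3401 fell (19.5%). Quantile normalization put the median of all genes at 0.10 and upper quartile scaling put it at -0.15, beside -0.02. Small differences are therefore relative to that shift.

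The sign of 15 uncalled genes changed in 42 values, and the cause was not tested. Des was 0.0098 under TMM scaling, 0.029 under quantile normalization and 0.19 with array weights. Quantile normalization gave -0.10 for Tpm1, 0.20 for Ldb3 and -0.12 for Csrp1. Upper quartile scaling gave -0.085 for Tpm1, -0.0066 for Myocd, -0.066 for Csrp1 and -0.022 for Pdgfrb. Array weights gave 0.044 for Cnn1 and 0.075 for Smtn. With wild-type 1 alone the values were -0.086 for Tagln, -0.28 for Synpo2, 0.31 for Flna, -0.57 for Pdlim3, -0.47 for Myocd, 0.95 for Actn1, -0.11 for Mustn1, -0.049 for Hspb6 and -0.17 for Pdgfrb, and of these Actn1 was called. Leaving out 1 library gave ranges of -0.34 to 0.14 for Cnn1, -0.27 to 0.14 for Des, -0.20 to 0.016 for Smtn, -0.10 to 0.24 for Tpm1, -0.32 to 0.21 for Flna, -0.029 to 0.54 for Pdlim3, -0.11 to 0.43 for Myocd, -0.60 to 0.44 for Actn1, -0.099 to 0.20 for Csrp1, -0.035 to 0.36 for Synpo2 and -0.22 to 0.37 for Pdgfrb. The 9 ratios reported kept their direction when 1 library was left out, and no p could pass the threshold at that size.

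Libraries with the same replicate number did not deviate together (correlations of -0.0037, 0.021 and -0.17 for numbers 1 to 3, across genes), none was closest to the library of its own number, and a fit with the replicate number as a block called 2 of the 30 genes higher and 9 lower, adding Ppp1r14a (adjusted p = 0.0303), with 3726 genes higher and 3626 lower in all.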

Other observations

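Among skeletal and cardiac muscle genes, Tnni3 and Acta1 had large differences between the groups. Of 27 listed genes 15 passed the filter, and of these 8 fell (53.3%) and 1 rose (6.67%), against 21.5% and 23.3% of all genes tested. Tnni3, cardiac troponin I, had 5541, 5221 and 3668 normalized counts in the wild-type libraries and 37.8, 103 and 65.4 in the knockout libraries, a log2 difference of -6.20 ± 0.31 (SE; limma adjusted p = 3.87e-07). Acta1, at 1914, 28343 and 10619 against 351, 474 and 495 (-4.25 ± 0.72, adjusted p = 0.000864), varied widely among wild-type libraries, and with wild-type 1 alone it was -2.13. The cardiac actin Actc1 (147, 1546 and 503 against 32.1, 27.3 and 39.4) and the slow troponin Tnnt1 (49.0, 563 and 223 against 14.2, 14.8 and 18.3) had the same order of wild-type libraries. With wild-type 1 alone Actc1 was -2.14 and Tnnt1 was -1.59, the latter not called (adjusted p = 0.0818). In 5 of the 15, Acta1, Actc1, Tnnt1, Actn2 and Actn3, wild-type 2 was at least 3 times and wild-type 3 at least 1.5 times above wild-type 1. Tnni3 did not have that pattern.

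Of 7 genes of interstitial cells of Cajal, the pacemaker cells of gut muscle, 2 fell (28.6%) and 1 rose (14.3%). The shares over all genes tested were 21.5% and 23.3%. Kit, the receptor that marks them and also mast cells, had 2153, 1532 and 1540 normalized counts in the wild-type libraries and 315, 285 and 210 in the knockout libraries (-2.68 ± 0.20, limma adjusted p = 4.75e-06). The chloride channel Ano1, the other common marker, had 2427, 1436 and 1798 against 4812, 5312 and 5867 (1.53 ± 0.19, adjusted p = 0.000116). The 2 markers moved in opposite directions, and Ano1 is also made by epithelia.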
